A study of Mus musculus with 4 samples.

Results

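Ribosome-bound RNA of sensory neurons was set against RNA of the whole dorsal root ganglion, both taken 72 hours after a forceps injury of the sciatic nerve. The comparison covered the 5045 transcripts, of 116912 listed, that had 20 or more reads summed over the injured bulk and the injured RiboTag library. These 2 libraries are 2 of the 4 samples of the series, and each group holds 1 sample. Reads per transcript were averaged over the 3 numbered columns deposited for a library and scaled by the library total without the 2 most abundant RiboTag transcripts.

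Dorsal root ganglia hold the cell bodies of sensory neurons, wrapped by satellite glia and accompanied by Schwann cells, vessels, fibroblasts and immune cells. In the RiboTag method, Cre recombinase switches the ribosomal protein Rpl22 to a form that carries an HA tag, and an anti-HA antibody then pulls down tagged ribosomes with the RNA bound to them. Advillin is expressed in sensory neurons, so its Cre driver is used to tag the ribosomes of these cells, whereas whole-lysate RNA comes from every cell of the ganglion, ribosome-bound or not.

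The injured bulk library came from adult wild-type mice of the CD-1 strain and was made with a nanopore direct RNA kit. The injured RiboTag library came from adult mice of genotype RPL22HA+/+;Advillin-Cre+, from a cross of the strains B6N.129-Rpl22tm1.1Psam/J and B6.129P2-Aviltm2(cre)Fawa/J, and was made with a nanopore cDNA-PCR kit. The uninjured libraries, used below as a second pair, had the same strains, genotypes and kits within each assay. Strain, genotype, immunoprecipitation and library chemistry changed together between the assays and cannot be told apart, and bulk RNA cannot tell fewer cells of a type from less RNA per cell. The number of mice pooled in a library is not given in the sources used here.

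The files name transcripts by identifier and do not pair them with genes, and 0 of the 116912 identifiers were found in the gene tables used here. The transcripts are therefore described as groups, with 2 examples in each direction named by identifier. Markers of neurons and of other ganglion cells could not be read for the same reason, so the neuronal origin of the RiboTag RNA was not tested, and no promoter or protein sequence could be matched to a transcript.

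The depth of the libraries was uneven. Injured bulk RNA had 529332 reads per column on average and injured RiboTag RNA 79334. The 2 dominant transcripts held 40.9% of the injured RiboTag reads and 0.0191% of the injured bulk reads, and their sum stood at a log2 ratio of 11.82 (95% counting interval 11.54 to 12.12). Without them the totals were 529231 and 46859 reads, or 11.3 bulk reads for each RiboTag read. Levels are given as RPM, reads scaled to a library total of 1000000 without the dominant pair. The limit set by a count of 0, taken as 3 reads, was 5.67 RPM in injured bulk RNA and 64.0 in injured RiboTag RNA.

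Ribosome-bound and whole-ganglion RNA differed in both directions after injury. A transcript was called higher or lower when its ratio, computed with 0.5 read added to each count, reached 2-fold and its exact conditional binomial 95% interval excluded no change. Of the 5045 transcripts, 679 (13.5%) were called higher in RiboTag RNA and 892 (17.7%) lower. The median log2 ratio was -0.49, with quartiles of -1.78 and 0.70. With 1 sample per group there is no test between animals, and every interval covers counting error only.

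The rule admits no called transcript under 2-fold, so the sizes below are a description of the calls. The higher group had a median log2 ratio of 2.14 (quartiles 1.74 and 2.85), and 392 of its members reached 4-fold, 151 reached 8-fold and 60 reached 16-fold. The lower group had a median of -2.74 (quartiles -3.53 and -1.98), with 664, 400 and 133 members past the same folds. The lower group included 289 transcripts with 0 RiboTag reads, and with a count of 0 set to 3 reads its median was -1.98. The same replacement moved the median of all tested transcripts to -0.13 and left that of the higher group at 2.14. For 67 transcripts (1.33%) the whole interval lay within 2-fold, and none of these had fewer than 129.8 bulk or 12 RiboTag reads. In injured RiboTag RNA only 328 transcripts had 20 or more reads, so this share does not show that close levels were rare.

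**Figure D1:**
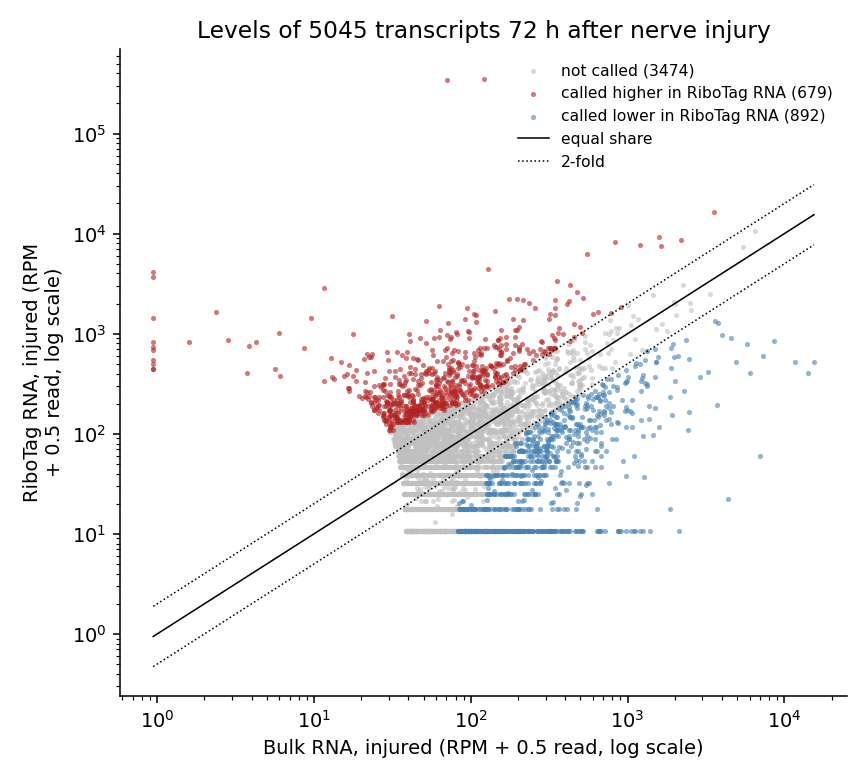
Level of each of the 5045 transcripts in injured bulk RNA (horizontal) and injured RiboTag RNA (vertical), in RPM after adding 0.5 read, on log axes; the lines mark equal shares and a 2-fold difference. Points above the upper dotted line include the 679 called higher and points below the lower one the 892 called lower, the rows of points at the bottom are whole RiboTag reads from 0 upward, and the 2 points at the top are the dominant pair.

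The called groups held a large part of both libraries. Outside the dominant pair, transcripts called higher held 36.7% of injured RiboTag reads and 7.15% of injured bulk reads. Transcripts called lower held 6.31% of injured RiboTag reads and 42.8% of injured bulk reads. The injured libraries chose these groups, which by itself separates the shares. In the uninjured libraries, which did not enter the choice, the higher group held 35% of RiboTag and 7% of bulk reads, and the lower group 7.43% and 42.3%.

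The balance of the directions depended on the scaling. With totals that include the dominant pair, 388 transcripts were called higher and 1814 lower, so that 17.6% of calls were higher against 43.2% without the pair. TMM factors gave 446 higher and 1551 lower (22.3% higher), and setting the median ratio to no change gave 905 higher and 544 lower (62.5% higher). These scalings moved the median of all transcripts by -0.76, -0.58 and 0.49 on the log2 scale. A change of scaling shifts every ratio by the same amount, so the order of the transcripts is fixed under all of these. The sign of the median also depended on how low counts were treated. With 5 reads added to each count it turned to 0.94 (696 higher, 330 lower), with no read minimum to 0.83 (1901 higher, 892 lower), and with 5 or more reads required in each library to 1.01 (655 higher, 178 lower).

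**Figure D2:**
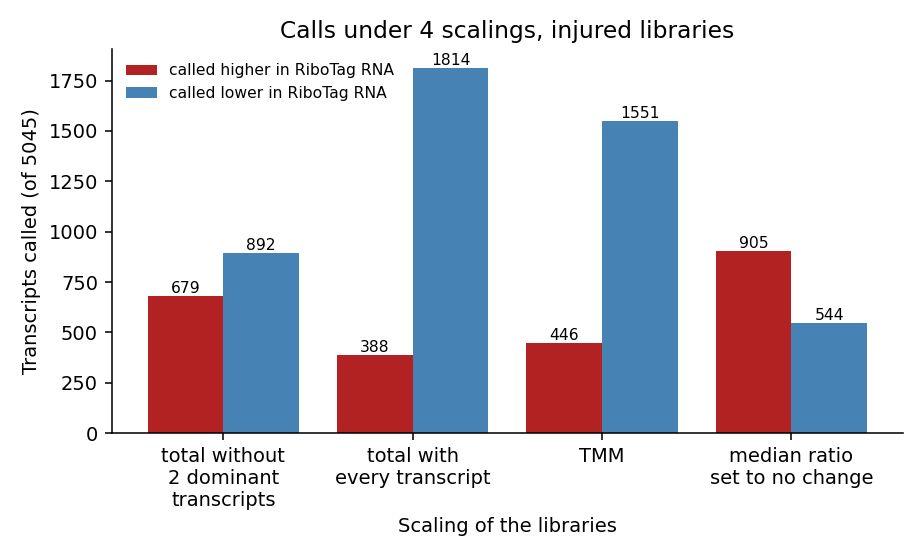
Number of the 5045 transcripts called higher (red) and lower (blue) in injured RiboTag RNA under 4 ways of scaling the libraries. Higher calls range from 388 to 905 and lower calls from 544 to 1814, and lower calls exceed higher ones in all scalings shown except the centred one.

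The read counts that entered the rule set which transcripts could be called. At 0 RiboTag reads a lower call needed 44 bulk reads, and at 1 RiboTag read it needed 66. A higher call on 5 RiboTag reads allowed at most 16 bulk reads, and on 10 RiboTag reads at most 51. Of the tested transcripts, 2755 had fewer than 44 bulk reads after rounding. The rule, which takes the mean of the 3 columns as the count, could not call these lower. With the columns summed instead, 2279 transcripts were called lower, with more transcripts tested. Of the 722 tested transcripts with 0 RiboTag reads, 289 were called lower and 433 were not called, and 373 had RiboTag reads in the uninjured library. At the read minimum, the 202 transcripts with 20 to 21 reads had a median log2 ratio of 0.08 with 26 higher and 0 lower, and the 225 just below it, with 19 to 20 reads, had a median of 0.15 with 32 higher and 0 lower.

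From 10 RPM upward, more abundant transcripts were called more often in both directions. Level was taken from the uninjured libraries, as the mean of the bulk and RiboTag RPM, because those counts do not enter the injured ratio. Among 614 transcripts at 10 to 30 RPM, 1.14% were called higher and 4.72% lower. Among 2491 transcripts at 30 to 100 RPM, 7.27% were called higher and 11.4% lower. Among 1343 transcripts at 100 to 300 these shares were 24.4% and 28.3%, and among the 481 at 300 or more they were 33.5% and 38%. The 116 transcripts under 10 RPM had 13.8% lower calls, and the columns agreed for only 23.3% of them. The median log2 ratio was -0.44, -0.07 and -0.18 in the classes from 30 RPM, and the quartiles of the top class were -1.75 and 1.73. The median RiboTag count rose from 2 to 6.29 and 19.7 reads over those classes, and its part in the shares called was not tested.

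**Figure D3:**
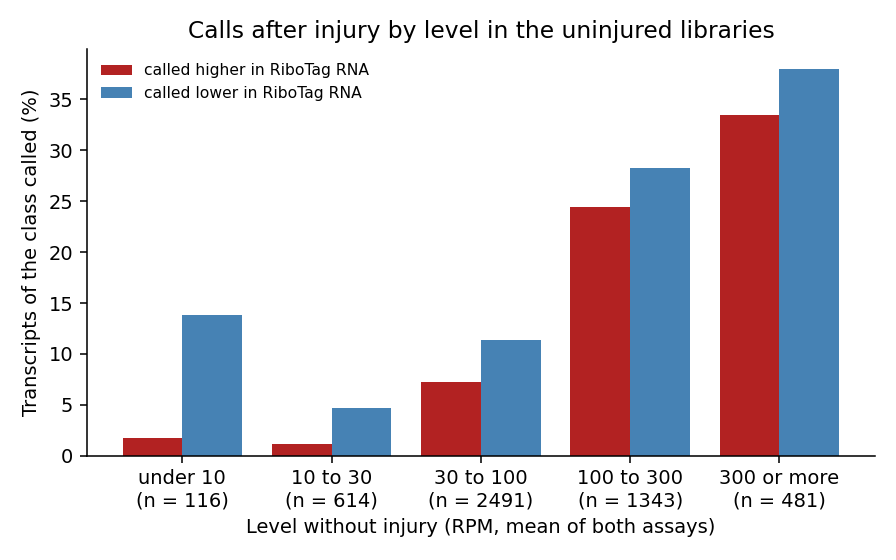
Share of transcripts called higher (red) and lower (blue) in injured RiboTag RNA, in %, by their level in the uninjured libraries in RPM, with the number of transcripts in each class. Both shares rise from the class of 10 to 30 to the class of 300 or more, where 33.5% were called higher and 38% lower.

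The most abundant transcripts of the assays were largely different ones. Leaving out the dominant pair, the injured libraries shared 2 of their 10, 25 of their 100 and 395 of their 1000 most abundant transcripts. Within an assay the lists of the 2 injury states overlapped more, with 71 of the top 100 shared between the RiboTag libraries and 90 between the bulk libraries. The top 100 of uninjured RiboTag RNA had 99 members measured after injury, of which 66 were higher in injured RiboTag RNA, 4 were lower, and the median log2 ratio was 2.21. The top 100 of uninjured bulk RNA had 76 lower and 5 higher members, with a median of -2.06. Over all tested transcripts 13.5% were higher and 17.7% lower, and among the 481 at 300 RPM or more these shares were 33.5% and 38%. Both lists were chosen in the uninjured libraries, but each by its level in a single assay of the ratio. Such a choice by itself leans a list toward that assay. The uninjured libraries also share kit, strain and genotype with the injured ones.

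Single transcripts were chosen from those called with 50 or more reads whose 3 columns agreed within each injured library by a chi-square test at 0.001. Of these, 258 were higher and 633 lower. The 12 highest had log2 ratios from 4.18 to 10.57, with 38.9 to 207.6 RiboTag reads and 0 to 67.6 bulk reads. The 12 lowest had log2 ratios from -7.63 to -6.36, with 462.4 to 3688 bulk reads and at most 2.33 RiboTag reads, and 9 of them had 0 RiboTag reads. The highest and lowest ratios of any such list are picked for their size and are given here as a description. The balance of 258 to 633 depends on the read minimum. Without regard to column agreement, a minimum of 50 summed reads gave 307 higher and 831 lower calls. Requiring 5 or more reads in each library gave 655 higher and 178 lower.

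The highest ratio belonged to ENSMUST00000107923.10. Its injured RiboTag columns held 60.8, 70.5 and 68.6 reads and its injured bulk columns 0 in each. Every RiboTag column lay above every bulk column, though the columns are not replicates. With the bulk count set to the limit of 3 reads, the mean level was 251-fold higher in RiboTag RNA, leaving out the counting error of the RiboTag reads. The counting interval of its log2 ratio began at 7.64 and had no upper end. In uninjured RiboTag RNA it had 173.8 reads in 1 column and 0 in the other 2, and 0 in bulk RNA. Summed with all transcripts up to 10 places away in the list, without the dominant pair, its log2 ratio was 1.12 (0.94 to 1.30). The difference of the single identifier was thus much larger than that of its stretch of the list.

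ENSMUST00000196855.2 was the second highest, and its RiboTag level was 1644 RPM after injury and 1868 RPM without it. It had 77.8, 70.9 and 82.3 reads in the injured RiboTag columns and 0, 1.02 and 1.27 in the injured bulk columns, a log2 ratio of 9.44 (7.24 to 15.09) that rests on under 1 bulk read on average. Without injury it had 257.9, 237.8 and 304.8 RiboTag reads and 2.24, 2.01 and 3.03 bulk reads, a log2 ratio of 8.57 (7.25 to 12.17). With its neighbours in the list summed, the log2 ratio after injury was 4.50 (3.94 to 5.11).

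The lowest ratio belonged to ENSMUST00000019649.4, an abundant bulk transcript. It had 2341, 2330 and 2313 reads in the injured bulk columns and 0, 0 and 1.61 in the injured RiboTag columns, a log2 ratio of -7.63 (-12.99 to -5.21) that turned to -5.22 with 5 reads added to each count. Without injury it had 2500, 2472 and 2534 bulk reads and 19.9, 19.5 and 14.4 RiboTag reads, a log2 ratio of -5.03 (-5.82 to -4.40). The bulk values of the 2 states were close, and all RiboTag values lay far below them.

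ENSMUST00000213158.2 was at 0 in all RiboTag columns of both injury states. Its injured bulk columns held 750.4, 725.0 and 734.3 reads. With the RiboTag count set to the limit of 3 reads, its level was 21.7-fold lower in RiboTag RNA, leaving out the counting error of the bulk reads. The counting interval of the log2 ratio ended at -4.14 and had no lower end. In the deeper uninjured libraries, with 956.6, 866.5 and 846.7 bulk reads, it was 71.5-fold lower by the same limit, with an interval that ended at -5.86. With its neighbours in the list summed, the log2 ratio after injury was -2.87 (-3.96 to -2.01).

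**Figure D4:**
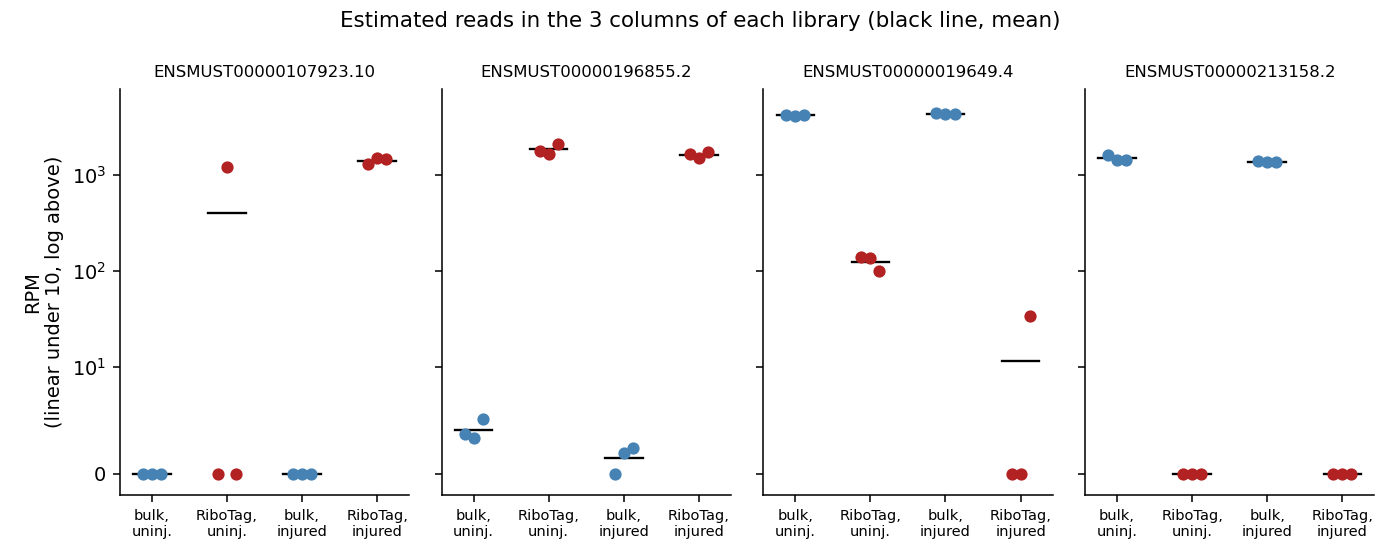
Level in RPM in each of the 3 columns of the bulk (blue) and RiboTag (red) libraries for the 4 named transcripts, on an axis that is linear under 10 and logarithmic above; black lines are means over columns, which are not replicates. The first pair lies high in RiboTag and near 0 in bulk RNA, and a single uninjured RiboTag column carries all reads of ENSMUST00000107923.10. The second pair lies far lower in RiboTag than in bulk RNA, with ENSMUST00000019649.4 at a mean of 125 RPM in uninjured RiboTag RNA.

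The uninjured libraries gave the same comparison in separate samples. There, 1271 of 6174 transcripts (20.6%) were called higher in RiboTag RNA and 1955 (31.7%) were called lower. The median ratio there was -0.45 on the log2 scale. In both states 4687 transcripts were measured, and 4020 of them (85.8%) had the same sign. Across these transcripts the injured and uninjured ratios had a Pearson r of 0.86 and a Spearman rho of 0.86. For the 726 transcripts with 10 or more reads in each of the 4 libraries r was 0.90, and for the 155 with 30 or more it was 0.94. Transcripts are not independent replicates, and the points share kit, strain and genotype within each assay, so the coefficients are given as a description.

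Transcripts chosen without injury mostly kept their sign after it, in 793 of 815 higher (97.3%) and 1628 of 1673 lower ones (97.3%). Of 815 transcripts called higher without injury and measured after it, 556 (68.2%) were higher after injury, 6 were lower and 253 were not called, where 14.1% of all transcripts measured in both states were higher. Their median log2 ratio was 1.85 in the injured libraries, which did not choose them, and 1.85 in the uninjured ones. Of 1673 called lower without injury, 778 (46.5%) were lower after it and 0 were higher, against 18.5% lower among all measured in both states. Their median was -2.02 after injury and -2.53 without it. The uninjured libraries chose this group, and at the same bulk level 0 reads give a less negative ratio in the shallower injured RiboTag library. The difference between these medians was not tested. Among the 2199 transcripts not called without injury, 4.77% were higher and 3.68% lower after it.

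Of the 895 transcripts lower without injury and not called after it, 547 (61.1%) had fewer than 44 injured bulk reads. The rule could not call these lower. A lower call needs 44 at 0 RiboTag reads and 66 at 1 RiboTag read. Whether the others had enough for their own RiboTag counts was not examined. Of the 1126 transcripts lower without injury that had 44 or more injured bulk reads, 778 (69.1%) were lower after it. Among all 2241 transcripts measured in both states with that many bulk reads, 38.6% were lower after injury. The bulk count is itself part of the injured ratio. The part of depth in the other lost calls was not tested. In the other direction, 556 of the 661 injured higher calls measured without injury (84.1%) were higher there too, and 778 of 865 lower calls (89.9%) were lower there too. Among all transcripts measured in both states, 17.4% were higher and 35.7% lower without injury. The 12 highest and the 12 lowest transcripts were all called in the same direction without injury, with log2 ratios of 3.51 to 8.92 and of -8.78 to -1.69. The value of 8.92 is that of ENSMUST00000107923.10, which rests on a single uninjured RiboTag column.

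**Figure D5:**
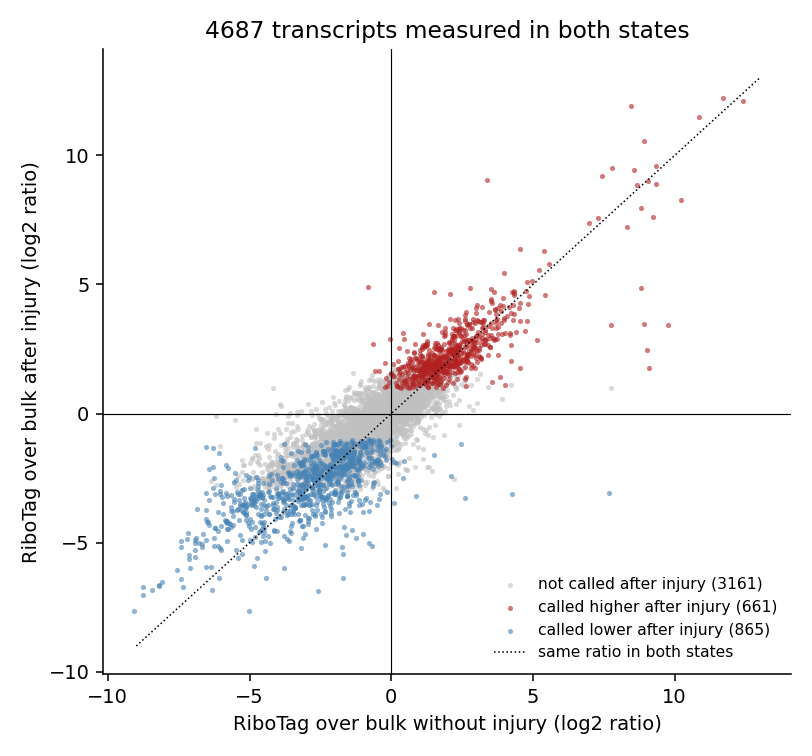
Log2 ratio of RiboTag over bulk RNA without injury (horizontal) and after injury (vertical) for the 4687 transcripts measured in both states, coloured by the call after injury; the dotted line marks the same ratio in both. Of the points, 85.8% lie on the same side of 0 on both axes, and the Pearson r is 0.86.

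The 3 columns of a library did not always agree on a transcript. Of transcripts with 20 or more reads in a library, 15.3% in injured bulk RNA and 7.01% in injured RiboTag RNA differed between columns by the chi-square test. Single columns of the same injured library, compared by the calling rule, gave calls for 12.9% to 13.3% of transcripts in bulk RNA and for 6.97% to 8.37% in RiboTag RNA. Among the 4205 tested transcripts whose columns agreed in both injured libraries, 555 (13.2%) were higher and 675 (16.1%) lower in RiboTag RNA, close to the shares over all transcripts. Of the 634 such transcripts, with columns that agreed in all 4 libraries, that were higher without injury, 434 (68.5%) were higher after it and 0 lower. Of 1226 that were lower without injury, 536 (43.7%) were lower after it and 0 higher.

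Reads assigned to different transcripts of a locus could raise one identifier and lower another. Of the 679 higher calls, 122 (18%) had a lower call within 10 places in the list, beside 17.5% of transcripts that were not called. Of the 892 lower calls, 122 (13.7%) had a higher call as near, beside 10.6% of transcripts not called. When each called transcript was summed with all others within 10 places, 473 of 677 higher calls outside the dominant pair (69.9%) were still called higher and 7 turned to lower. For the lower calls, 525 of 892 (58.9%) were still lower and 29 turned to higher. Each sum contains the called transcript itself, which favours the same call, so these shares do not show that the neighbours differed. The median log2 ratio of the sums was 1.50 for the higher group, against 2.14 for the transcripts themselves, and -1.32 for the lower group, against -2.74. Places in the list do not show which transcripts share a gene, and a sum also takes in neighbours of other genes, so the part of read assignment in the ratios was not tested.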

How the data were processed

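Per the file headers, the deposited tables hold, for each library, 3 columns of reads assigned to each transcript (estimated counts, not all whole) and 3 of TPM. The deposited TPM values were the estimated counts multiplied by a constant within 0.0499% and were not used further. The submitters' processing notes name minimap2, Salmon and the builds GRCm39 and mm39. Tool versions, settings, the annotation and what separates the 3 columns: not given in the sources used here. The labels give 1 sample per group, so the columns were averaged and no p-value between groups was computed. No molecular identifiers were used here, so PCR copies in the RiboTag libraries were not told apart. Intervals and the limit of 3 reads at a count of 0 cover the counting error of reads only, not of molecules.

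Ratios, exact conditional binomial 95% intervals (scipy 1.17.1) from column means rounded to whole numbers, and calls follow the report. TMM factors came from edgeR 4.0.16. The comparison by gene that was planned could not be run, since no table pairs the identifiers with genes, and the planned gene lists were not used. Named transcripts were the 12 highest and 12 lowest by the rule in the report, with the first 2 of each printed. Members, lists and rules were chosen with earlier results of these data known. The level classes, top lists and sums over list places were added after the data were examined.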

Additional observations from a re-analysis of the deposited data

Results flagged for a closer look

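Among the 4687 transcripts measured in both injury states, 6 were called in opposite directions, which drew attention because the direction of the assay difference turned between the states. All 6 were higher in RiboTag RNA without injury (log2 ratios 1.52 to 7.69) and lower after it (-3.27 to -1.16). The difference between the states was not tested, since each group has 1 library. The columns of injured bulk RNA disagreed for all 6, those of uninjured bulk RNA for 5, and among transcripts whose columns agreed in all 4 libraries the number of opposite calls was 0.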

How the results depend on the processing

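The injured comparison made 1571 calls. Scaling by the full total gave 388 higher and 1814 lower calls, TMM factors 446 and 1551, and centring on the median 905 and 544. A pseudocount of 5 gave 1026 calls (330 lower; median log2 ratio 0.94), a minimum of 50 reads 307 higher calls, no minimum 2793 calls (1901 higher; median 0.83), and 5 or more reads in each library 833 calls (178 lower; median 1.01), so these 3 medians changed sign. A 4-fold threshold gave 392 higher calls. Summing the columns gave 4080 calls (1801 higher, 2279 lower), with 3 times the reads and more transcripts tested. For all other changes here the cause was not tested. Leaving out column 1, 2 or 3 gave 1626 to 1655 calls, of which 584 to 600 of the higher and 792 to 815 of the lower were among those reported, and the 4 named transcripts kept their calls under every alternative in which they were tested.

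The uninjured comparison made 3226 calls, and gave 1776 with a minimum of 50 reads, 1663 with 5 or more reads in each library, 2089 at 4-fold and 6657 with summed columns. Its median turned to 0.15 with a pseudocount of 5, 0.18 with no minimum and 0.46 with 5 or more reads in each library. The comparisons by gene and the gene lists were not run, since identifiers could not be paired with genes. No paired analysis was possible because each group holds 1 sample. At 0 RiboTag reads, fewer than 44 injured bulk reads gave no lower call.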
